A study of Mus musculus with 4 samples.

Results

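Genes that carry newborn cortical neurons to their layers were followed in the fetal cerebral cortex of mice that lack Cd93, which encodes a cell-surface lectin receptor studied mostly in the endothelium. The set holds 10 genes taken by name: Dcx, Dclk1, Pafah1b1, Ndel1, Tuba1a, Tubb2b, Tubb3, Dab1, Lrp8 and Cdk5. All 10 had a row in both deposited tables, out of 20385 genes listed in both, and all 10 passed the filter on low counts that left 16371 genes for the test. RNA came from dissected cortex of C57BL/6 embryos at embryonic day 16 (E16), as 2 Cd93 KO libraries (KO 5 and KO 6) and 2 wild-type libraries (WT 1 and WT 4). One table holds KO 6 with WT 1 and the other KO 5 with WT 4. The labels give neither the form of the Cd93 deletion nor a separate animal for each library, and the design text speaks of triplicates where 2 libraries a genotype are analysed here, so p-values and intervals measure the spread between these libraries, which may be technical.

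Cortical neurons are born near the ventricle and climb along radial glia towards the pial surface. Reelin, secreted by Cajal-Retzius cells below the pia, binds the lipoprotein receptors encoded by Lrp8 and Vldlr on migrating neurons, and the adaptor encoded by Dab1 is then phosphorylated by Src family kinases. The nucleus follows the leading process through microtubules built from tubulins, bundled by doublecortin and coupled to the motor dynein by LIS1 and its partner NDEL1, while CDK5 phosphorylates several of these proteins. Mutations of many of these genes cause lissencephaly, a smooth cortex, in humans or disordered cortical layers in mice.

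Library totals ran from 16318317 to 17555476 counts in the KO libraries and from 17158867 to 17586157 in the WT libraries. Cd93 itself (ENSMUSG00000027435, chromosome 2, 148436640 to 148443563, minus strand) had 111 and 99 counts in KO 5 and KO 6, against 680 and 409 in WT 1 and WT 4. It did not pass the edgeR test over all genes, with an adjusted p of 0.211 and 0.000971 with the deposited table as a block, but its levels follow the genotype labels. Markers of cortical neurons, radial glia and intermediate progenitors were present in every library, as the tissue label requires. Markers listed for the meninges and the ganglionic eminence were highest in WT 1 and were also lower in KO 5 than in WT 4. Whether they came from tissue next to the cortex or from cells within it was not tested. The 6 meningeal markers summed to 25.8 and 39.4 CPM (a gene's share of the counts of its library, on a scale common to all libraries) in KO 5 and KO 6, against 437 in WT 1 and 66.4 in WT 4. The 11 ganglionic eminence markers with a row in both tables summed to 322 and 480 CPM in the KO libraries, against 894 and 469 CPM in the WT libraries, with KO 6 above WT 4. All 6 meningeal markers and 6 of the 11 ganglionic eminence markers had a fitted change below 0 with an unadjusted p under 0.05 in edgeR. Of all tested genes 1.94% had such a p in either direction. In the adjusted test 0 of these markers passed. Both KO libraries were below both WT libraries in 5 of the 6 meningeal and 6 of the 11 ganglionic eminence markers, where 11.9% of all tested genes were. In KO 5 over WT 4 the median log2 ratio was -1.30 for the meningeal and -0.99 for the ganglionic eminence markers. The 7 projection neuron markers were lowest in WT 1, with 3732 and 3503 CPM in KO 5 and KO 6 against 3066 and 3652 CPM in WT 1 and WT 4. In bulk tissue, fewer cells of a type and less RNA per cell cannot be told apart.

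**Figure D1:**
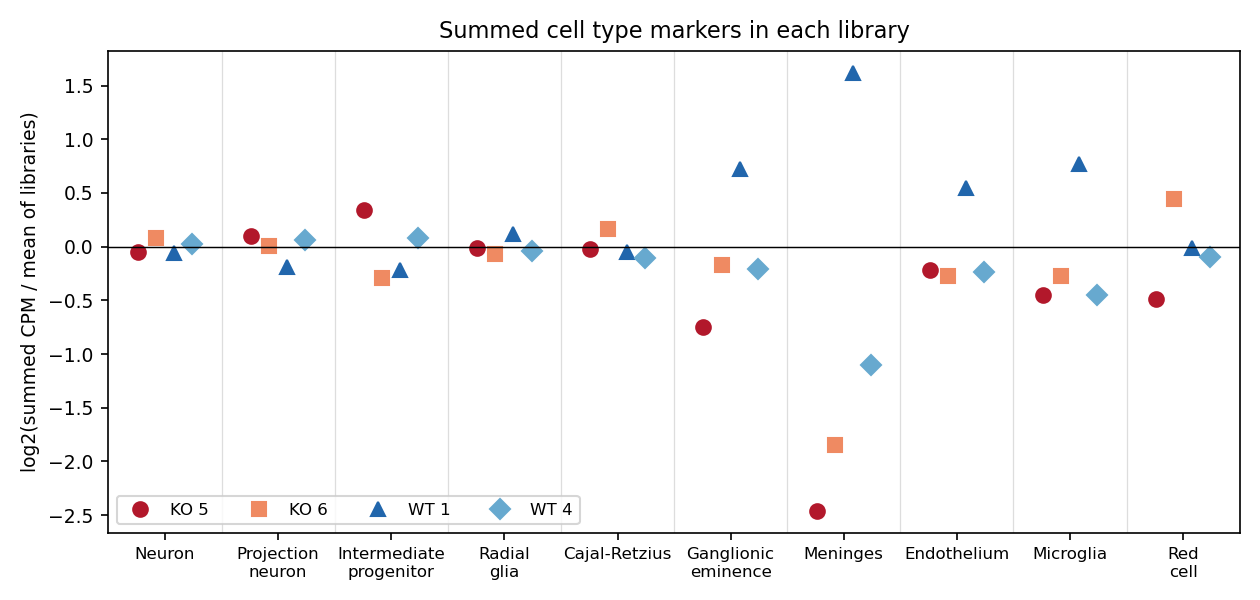
Summed CPM of each fixed marker list in each library, as log2 of its ratio to the mean of the 4 libraries, with KO 5 and KO 6 drawn left of WT 1 and WT 4. WT 1 is the highest library for ganglionic eminence, meninges, endothelium, microglia and radial glia, and the lowest for projection neurons and neurons.

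None of the 10 migration genes passed the test between the genotypes. In edgeR (quasi-likelihood fit, Benjamini-Hochberg adjustment over 16371 genes) 0 of the 10 passed an adjusted p of 0.05, where 0.0122% of all tested genes passed. Their smallest unadjusted p in edgeR was 0.244, for Ndel1, and 0 of 10 were under 0.05, where 1.94% of all genes were. DESeq2 and limma-voom also called 0 of the 10. Fitted log2 fold changes, KO over WT, lay between -0.12 (Ndel1) and 0.17 (Dab1), with standard errors of 0.0970 to 0.166. Their median was 0.05, where the median of all tested genes was -0.003. The 95% intervals bound what these libraries allow: the lowest bound of the 10 was a KO level 0.781 times that of WT (Ndel1), and the highest was 1.48 times (Dab1). A change of 1.5-fold in either direction therefore lay outside the interval of every one of the 10 genes. A two-sided exact permutation test of 2 against 2 libraries cannot go below p = 0.333.

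The KO and WT libraries did not overlap in 2 of the 10 genes, Lrp8 above and Ndel1 below, where 23.4% of all tested genes did not overlap in one direction or the other, 11.5% above and 11.9% below. In 1 of the 10, Ndel1, the fitted change was larger than both differences between libraries of a genotype, as it was in 2392 of the 16371 tested genes, a share near that of the 10.

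**Figure D2:**
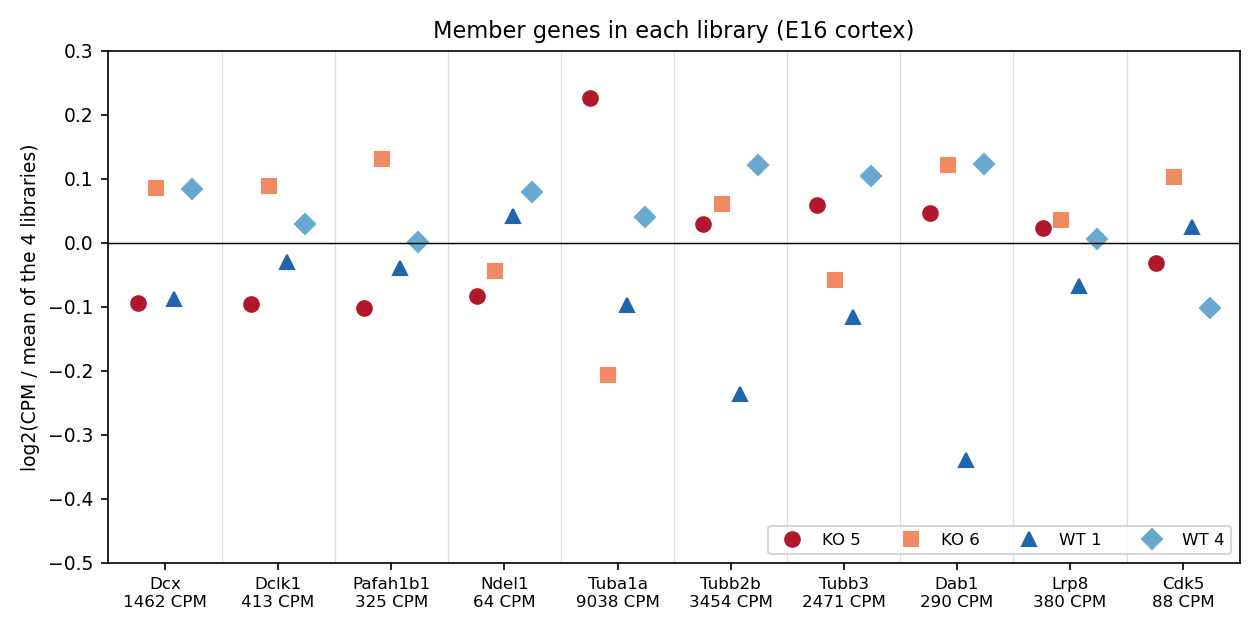
CPM of the 10 migration genes in each library, as log2 of its ratio to the mean of the 4 libraries, with that mean printed under each gene. Points of KO 5 and KO 6 (left) and WT 1 and WT 4 (right) interleave except in Ndel1, where both KO points lie below, and Lrp8, where both lie above. Dab1 in WT 1 lies farthest from its mean, followed by Tubb2b in WT 1 and Tuba1a in KO 5.

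Neither reelin response gene passed, and their widest gap was a low Dab1 value in WT 1. Dab1 (ENSMUSG00000028519, chromosome 4, 103619359 to 104744844, plus strand), the adaptor that passes the reelin signal into the cell, had 5245 and 5119 counts in KO 5 and KO 6, against 4076 and 5377 in WT 1 and WT 4. At equal depth these were 299 and 316 CPM in the KO libraries, against 229 and 316 CPM in the WT libraries. Both KO values thus lay inside the WT range, and WT 1 alone was low, 1.38-fold under WT 4. The log2 fold change was 0.17 (SE 0.16, 95% interval -0.22 to 0.57). It was 0.43 without WT 4 (edgeR adjusted p 0.555) and -0.04 without WT 1. WT 1 was also the library with the fewest projection neuron and the most meningeal marker counts given above, and their part in the Dab1 value was not tested.

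Lrp8 (ENSMUSG00000028613, chromosome 4, 107802261 to 107876840, plus strand), which encodes the reelin receptor ApoER2, had the narrowest spread of the 10 genes. Its level was 386 and 389 CPM in KO 5 and KO 6, against 362 and 381 CPM in WT 1 and WT 4. Both KO libraries were above both WT libraries, by a log2 fold change of 0.06 (SE 0.10, 95% interval -0.19 to 0.31). The highest library exceeded the lowest by 1.07-fold. Vldlr, the gene of the other reelin receptor, was at 73.1 and 85.4 CPM in the KO libraries, against 66.6 and 76.8 CPM in the WT libraries, and these overlapped. Per kilobase of exon, Lrp8 made up 82.4% ± 1.51 of the summed level of both receptors in KO and 83.3% ± 0.901 in WT (SD, n = 2 each). Dab1 per kilobase was 1.05 ± 0.0331 times Lrp8 in KO and 0.971 ± 0.184 times in WT (SD, n = 2 each), with the low WT 1 library at 0.841.

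Reln, which encodes the ligand itself, was at 399 and 454 CPM in KO 5 and KO 6, against 412 and 383 CPM in WT 1 and WT 4. Its log2 fold change was 0.10 (SE 0.12, 95% interval -0.18 to 0.39), and it did not pass. In the annotation 246 exon bases of Reln overlap the antisense gene Gm10475, which had at most 5 counts in a library. The wider Cajal-Retzius marker list, of which Reln is a member, had a fitted change above 0 in all 6 genes. Of the 16371 tested genes 8022 were above 0. In the list 1 gene had an unadjusted p under 0.05 in edgeR, where 1.94% of all genes had one in either direction, and 0 passed the adjusted test. The summed level of the list was 488 and 556 CPM in the KO libraries, against 476 and 458 CPM in the WT libraries. These sums did not overlap, but most of each was Reln, whose own values overlapped between the genotypes. Both KO libraries were above both WT libraries in 3 of the 6 genes, where 11.5% of all tested genes were.

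The doublecortin genes had the fitted changes nearest to 0 of the 10. Dcx (ENSMUSG00000031285, chromosome X, 143855842 to 143933311, minus strand), the X-linked lissencephaly gene whose protein binds and stabilises microtubules, had 23988 and 25172 counts in KO 5 and KO 6, against 24446 and 26384 in WT 1 and WT 4. At equal depth these were 1369 and 1552 CPM in the KO libraries, against 1375 and 1550 CPM in the WT libraries, so each genotype had a lower and a higher library and the pairs nearly coincided. The mean was 1461 ± 129 CPM in KO and 1463 ± 123 CPM in WT (SD, n = 2 each). The log2 fold change came to -0.002 (SE 0.12, 95% interval -0.30 to 0.30).

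Dclk1 (ENSMUSG00000027797, chromosome 3, 55242364 to 55539068, plus strand), its relative with a kinase domain, had 6779 and 7133 counts in the KO libraries, against 7193 and 7181 in the WT libraries. It averaged 413 ± 37.3 CPM in KO and 413 ± 12.1 CPM in WT (SD, n = 2 each), with a 95% interval of the log2 fold change of -0.28 to 0.28. The WT libraries lay inside the range of the KO libraries. Dcx and Dclk1 kept a steady proportion, with Dcx at 81.0% ± 0.0296 of their summed level per kilobase in KO and 81.0% ± 0.847 in WT (SD, n = 2 each). In the annotation 87 exon bases of Dclk1, 0.569% of its total, overlap the antisense gene Gm42609, which had at most 3 counts in a library.

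The LIS1 pair did not pass either. Pafah1b1 (ENSMUSG00000020745, chromosome 11, 74673949 to 74724670, minus strand) encodes LIS1, the regulator of dynein. It had 303 and 356 CPM in KO 5 and KO 6, against 316 and 325 CPM in WT 1 and WT 4, so the KO libraries enclosed the WT libraries. The log2 fold change was 0.04 (SE 0.12, 95% interval -0.25 to 0.33).

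Ndel1 (ENSMUSG00000018736, chromosome 11, 68821434 to 68871858, minus strand), whose protein links LIS1 to dynein, had 1052 and 1001 counts in KO 5 and KO 6, against 1164 and 1144 in WT 1 and WT 4. These were 60.1 and 61.7 CPM in the KO libraries, against 65.5 and 67.2 CPM in the WT libraries. Both KO libraries were below both WT libraries, and the libraries of a genotype lay close together. The log2 fold change of -0.12 (SE 0.10, 95% interval -0.36 to 0.11) did not pass, and it stayed between -0.14 and -0.10 when each library was left out in turn. Ndel1 was also the least counted of the 10 genes. Per kilobase, Pafah1b1 was 1.83 ± 0.174 times Ndel1 in KO and 1.63 ± 0.00221 times in WT (SD, n = 2 each).

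Cdk5 (ENSMUSG00000028969, chromosome 5, 24418241 to 24423530, minus strand), the gene of the neuronal cyclin-dependent-like kinase, had 1512 and 1536 counts in KO 5 and KO 6, against 1594 and 1399 in WT 1 and WT 4. At 86.3 and 94.7 CPM in the KO libraries, against 89.7 and 82.2 CPM in the WT libraries, the genotypes overlapped. The log2 fold change was 0.07 (SE 0.11, 95% interval -0.18 to 0.33). CDK5 is inactive without an activator, and Cdk5r1, which encodes the main one in migrating neurons, was at 465 ± 26.9 CPM in KO and 463 ± 75.3 CPM in WT (SD, n = 2 each). Cdk5r2, which encodes the other activator, was at 23.8 ± 2.78 CPM in KO and 21.9 ± 3.43 CPM in WT (SD, n = 2 each). Per kilobase Cdk5r1 was 2.69 ± 0.331 times Cdk5 in KO and 2.82 ± 0.631 times in WT (SD, n = 2 each).

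**Figure D3:**
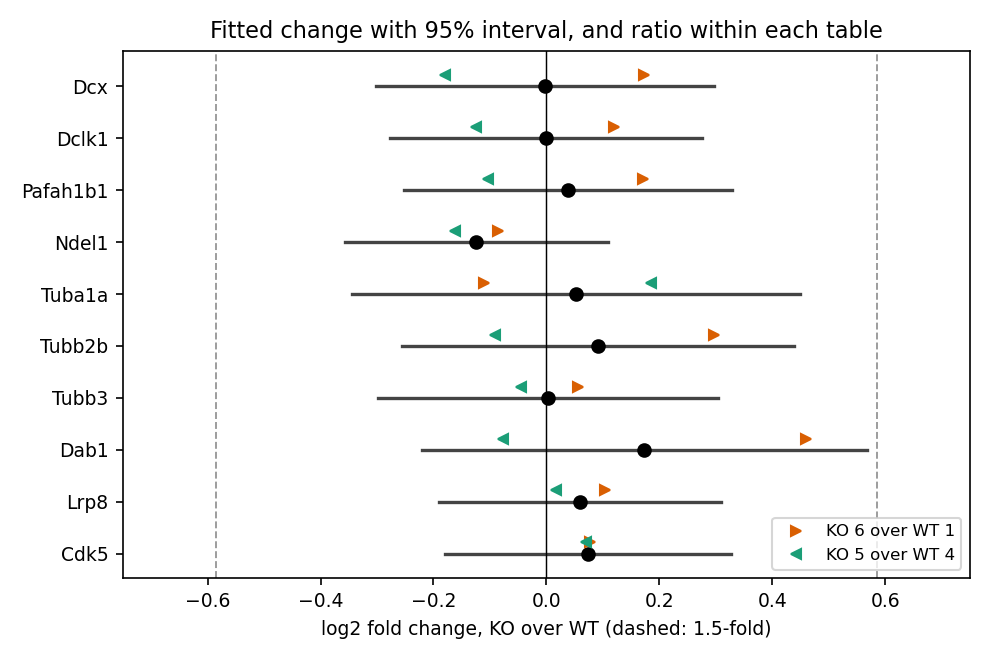
Fitted log2 fold change of KO over WT for the 10 migration genes (black points) with its 95% interval (lines), and above each the log2 ratio within each deposited table (triangles). All 10 intervals hold 0 and none reaches the dashed 1.5-fold lines, and in 7 genes the triangles lie on opposite sides of 0.

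The 3 tubulin genes are the most abundant members, and their sequences set how far their counts can be trusted. Tuba1a (ENSMUSG00000072235, chromosome 15, 98949841 to 98953551, minus strand) encodes the main alpha-tubulin of young neurons. Tubb2b (ENSMUSG00000045136, chromosome 13, 34126748 to 34130466, minus strand) and Tubb3 (ENSMUSG00000062380, chromosome 8, 123411424 to 123422015, plus strand) encode beta-tubulins, and that of Tubb3 is a standard marker of neurons. To show how little sequence separates such genes in the counting of reads, the last 60 coding bases of the beta-tubulins are printed here, from GENCODE M21 transcripts on GRCm38, with Tubb2b beside its near-identical neighbour Tubb2a. Capitals mark the bases at which that pair differs, and Tubb3, with no such neighbour, has none. The 3 codons that differ in the pair are all synonymous, so this stretch encodes the same amino acids in both. The stretches lie at chr13:34127471-34127530 and chr13:34074468-34074527 on the minus strand and chr8:123421623-123421682 on the plus strand, each inside 1 exon.
Tubb2b: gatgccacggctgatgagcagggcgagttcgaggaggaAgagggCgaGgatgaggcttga
Tubb2a: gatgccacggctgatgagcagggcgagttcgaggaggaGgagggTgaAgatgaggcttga
Tubb3: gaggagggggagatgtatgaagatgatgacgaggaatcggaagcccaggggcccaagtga

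The coding sequences of Tuba1a and Tuba1b differ at 23 of 1356 bases, and those of Tubb2b and Tubb2a at 47 of 1338, with an identical run of 551 bases. Of the distinct 25-base words in the transcripts of Tuba1a, 71.5% also occur in transcripts of other genes, against 45.6% for Tubb2b and 6.96% for Tubb3. For the other 7 migration genes the share was between 0% (Cdk5) and 5.07% (Pafah1b1, which has processed pseudogenes). In addition, 26.2% of the exon bases of Tuba1a lie in Gm49450, a gene model of GENCODE M21 that joins it to Tuba1b and has no row in both tables. Counts of Tuba1a and Tubb2b are therefore uncertain, since how reads that fit several genes were counted is not given in the sources used here.

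By mean CPM Tuba1a ranked 2 among the 16371 tested genes, and it varied more between the KO libraries than between the genotypes. It had 185265 and 127006 counts in KO 5 and KO 6, against 150223 and 158238 in WT 1 and WT 4. At 10576 CPM KO 5 was the highest and at 7829 CPM KO 6 the lowest of the 4, a 1.35-fold gap, and WT 1 at 8452 CPM and WT 4 at 9296 CPM lay between them. The log2 fold change was 0.05 (SE 0.17, 95% interval -0.34 to 0.45), and 0.04 with the counts of Tuba1a, Tuba1b and Tuba1c summed. It was 0.26 without KO 6 and -0.18 without KO 5. Tuba1a alone took 1.06% of all counts in KO 5 and 0.778% in KO 6, against 0.854% in WT 1 and 0.923% in WT 4.

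Tuba1b, the alpha-tubulin gene most used by dividing cells, was at 656 and 529 CPM in KO 5 and KO 6, against 648 and 630 CPM in WT 1 and WT 4. Tuba1c was at 116 and 164 CPM in the KO libraries, against 128 and 150 CPM in the WT libraries. Tuba1b was lower and Tuba1c higher in KO 6 than in KO 5, and for both genes the KO libraries enclosed the WT libraries. Per kilobase Tuba1a made up 93.0% ± 0.810 of these 3 genes in KO and 92.4% ± 0.468 in WT (SD, n = 2 each).

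Other rows that share at least 100 words with these alpha-tubulins were 7 pseudogenes and Slc7a11, which encodes a cystine transporter. Some of them, named here after their values were seen, differed widely between KO 5 and the other libraries. The pseudogene AC154767.3 had 128 and 2214 counts in KO 5 and KO 6, against 1333 and 1684 in WT 1 and WT 4. Gm14150 had 72 and 993 counts in the KO libraries, against 530 and 485 in the WT libraries. Gm3756 ran the other way, with 1273 and 341 counts in KO 5 and KO 6, against 840 and 815 in WT 1 and WT 4. All 7 pseudogenes together held 1.66% and 3.42% of the counts of the alpha-tubulin group in KO 5 and KO 6, against 2.65% and 2.52% in WT 1 and WT 4. With every such row added, the group summed to 11515 and 8799 CPM in KO 5 and KO 6, against 9608 and 10263 CPM in WT 1 and WT 4. KO 5 was the highest and KO 6 the lowest library. The added rows held too few counts to change that order, so the sum does not test how reads were assigned. Genes without a row in both tables are not in it.

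**Figure D4:**
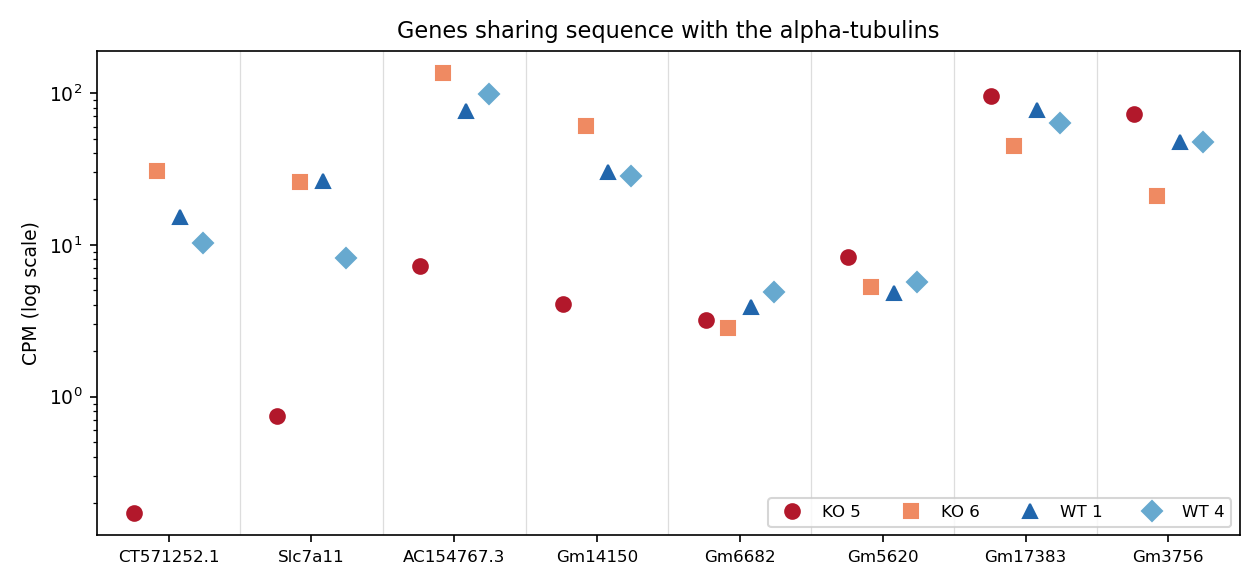
CPM, on a log axis, of the 8 rows that share at least 100 of the 25-base words of Tuba1a, Tuba1b or Tuba1c, ordered by the ratio of KO 5 to KO 6. KO 5 is far below the other libraries in CT571252.1, Slc7a11, AC154767.3 and Gm14150, and is the highest library in Gm5620, Gm17383 and Gm3756.

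The ratio of Tubb2b to Tubb2a differed most between the WT libraries. Tubb5, a beta-tubulin gene outside the shares given here, had more counts than Tubb2b in every library. It had 80827 and 62501 counts in KO 5 and KO 6, against 75650 and 85959 in WT 1 and WT 4. Tubb2b had 3527 and 3601 CPM in KO 5 and KO 6, against 2933 and 3756 CPM in WT 1 and WT 4, and the log2 fold change was 0.09 (SE 0.14, 95% interval -0.26 to 0.44). Both KO values lay inside the WT range. Tubb2a, its near-identical neighbour, was at 593 and 741 CPM in the KO libraries, against 817 and 515 CPM in the WT libraries. WT 1 had the least Tubb2b and the most Tubb2a, and WT 4 the reverse. Per kilobase the ratio of Tubb2b to Tubb2a was 4.17 and 3.41 in KO 5 and KO 6, against 2.52 and 5.12 in WT 1 and WT 4. With the counts of both genes summed the log2 fold change was 0.08.

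Tubb3 shared less sequence with other genes than Tubb2b or Tubb2a did. Its counts were 45097 and 38491 in KO 5 and KO 6, against 40536 and 45223 in WT 1 and WT 4. It averaged 2474 ± 143 CPM in KO and 2469 ± 266 CPM in WT (SD, n = 2 each). Its fitted log2 change was 0.003 (SE 0.13, 95% interval -0.30 to 0.30). The KO libraries lay inside the range of the WT libraries. The summed level of the 10 pan-neuronal markers was 3043 and 3336 CPM in KO 5 and KO 6, against 3018 and 3212 CPM in WT 1 and WT 4, and these overlapped as well.

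**Figure D5:**
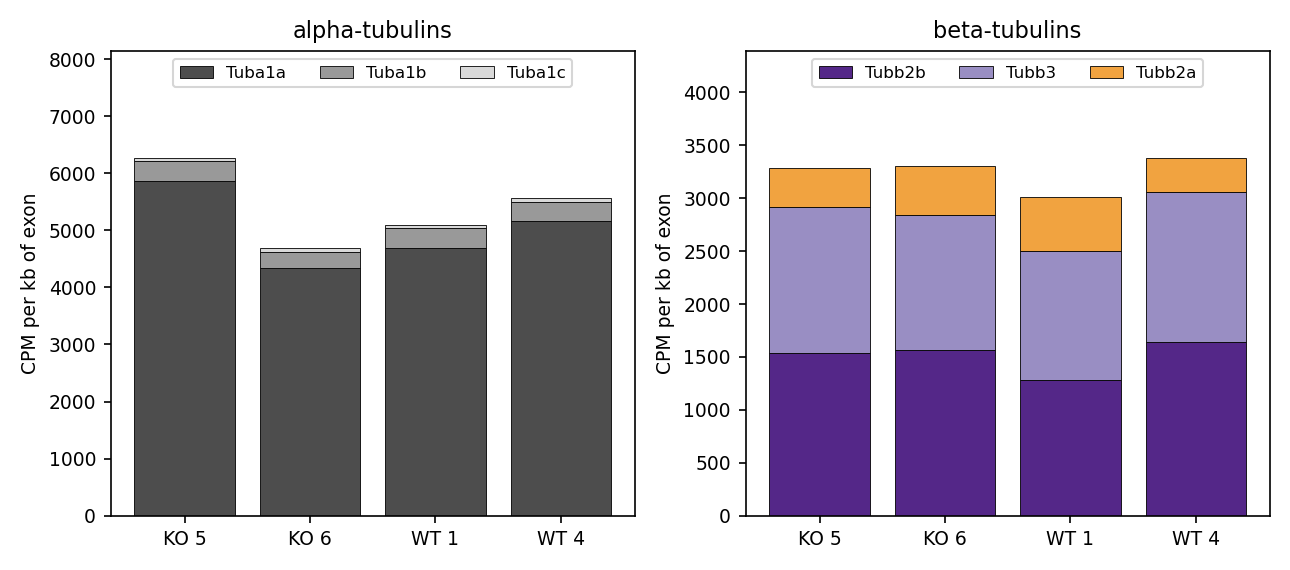
CPM per kilobase of exon of 3 alpha-tubulin genes (left) and 3 beta-tubulin genes (right), stacked, in KO 5, KO 6, WT 1 and WT 4. KO 5 has the tallest and KO 6 the shortest alpha-tubulin bar, and Tubb2a takes 11.2% of the beta-tubulin bar in KO 5 and 13.9% in KO 6, against 16.9% in WT 1 and 9.47% in WT 4. Tubb5 is not drawn.

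Levels per kilobase of exon ordered the 10 genes in tiers that held in all 4 libraries. Tuba1a came first with a mean of 5013 CPM per kilobase over the 4 libraries, above Tubb2b with 1506 and Tubb3 with 1323, whose ranges overlapped. Dcx followed with 116 CPM per kilobase, above all the remaining genes in every library. Next came Cdk5 with 40.7, Dab1 with 36.7, Lrp8 with 36.1 and Pafah1b1 with 33.8 CPM per kilobase, and neighbours among these genes overlapped in range. Dclk1 with 27.0 and Ndel1 with 19.6 CPM per kilobase closed the order, each apart from the gene above it. Together the 10 genes took 1.95% and 1.69% of all counts in KO 5 and KO 6, against 1.67% and 1.87% in WT 1 and WT 4.

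The direction of the small differences depended on which libraries were set against each other. In KO 6 over WT 1, 8 of the 10 genes were higher and 2 lower, and in KO 5 over WT 4, 3 were higher and 7 lower. Signs were opposite in 7 of the 10 genes, where 54.9% of all tested genes had opposite signs. Dcx was at a log2 ratio of 0.17 in KO 6 over WT 1 and -0.18 in KO 5 over WT 4, and Dab1 at 0.46 and -0.08 in the same order. Cdk5 and Lrp8 were higher and Ndel1 lower in both. Between libraries of a genotype, 8 genes were higher in KO 6 than in KO 5, and 9 were lower in WT 1 than in WT 4, where 49.4% of all tested genes were lower in WT 1. The exception in the WT libraries was Cdk5.

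In the authors' deposited table of KO 6 and WT 1, the deposited adjusted p was under 0.05 for 8 of the 10 genes, where it was for 21.2% of all listed genes. In the authors' deposited table of KO 5 and WT 4 it was for 6 of the 10, where it was for 12.9%. The authors marked a gene as significant where the change was also at least 2-fold, which in these deposited tables held for 0 of the 10 genes in either, against 4.67% and 2.31% of all genes. Those p-values compare 1 library with 1 library and so measure no spread between libraries. The shares beside them are not matched for count. The 10 genes had at least 1001 counts in a library, where listed genes went down to 2 counts in a table. For Tubb2b the authors' deposited tables give a log2 fold change of 0.27 with an adjusted p of 5.16e-214 in the first and -0.08 with 6.17e-22 in the second, in opposite directions.

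Across 8 lists of the wider pathways no gene passed. The edgeR test over all genes, which called 0.0122% of genes, called 0 of 26 reelin pathway genes, 0 of 31 genes of LIS1, dynein and dynactin, and 0 of 20 doublecortin family and microtubule-associated genes. It called 0 of 15 tubulin isotypes, 0 of 15 genes of tubulin folding and modification, and 0 of 13 Cdk5 activators and partners. It also called 0 of 33 cortical malformation genes and 0 of 20 regulators of radial migration. The lists share members with each other and with the 10 genes. Their median log2 fold changes lay between -0.004 (radial migration) and 0.02 (reelin pathway), beside -0.003 for all tested genes. DESeq2 called 0 genes of each list too. Of all 8 lists, 1 gene, Dclk3, had an unadjusted p under 0.05 in edgeR, where 1.94% of all tested genes had one. Dclk3 was 1 of the 20 doublecortin family and microtubule-associated genes, and the other lists had none.

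Dclk3, a kinase relative of Dclk1, had 29 and 37 counts in KO 5 and KO 6, against 126 and 65 in WT 1 and WT 4. Both KO libraries were below both WT libraries, with a log2 fold change of -1.47 (SE 0.40, 95% interval -2.42 to -0.52) and an edgeR adjusted p that did not pass. It passed without WT 4, at -1.84 (edgeR adjusted p 0.00264), and was -0.96 without WT 1. Its fellow list members Mapt, the gene of the microtubule-associated protein tau, and Dcdc2a, a doublecortin domain gene with at most 28 counts, were at a log2 fold change of 0.22 (SE 0.13) for Mapt and -1.10 (SE 0.69) for Dcdc2a. The ganglionic eminence markers given above were also highest in WT 1, and their part in the Dclk3 value was not tested.

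Among regulators of radial migration 5 of 20 genes were below WT in both KO libraries and 0 above, where 11.9% and 11.5% of all genes were. The 3 of smallest p, which are not among these 5, were carried by WT 1. Gja1, which encodes a gap junction protein of radial glia, had 313 and 341 counts in KO 5 and KO 6, against 1180 and 313 in WT 1 and WT 4. Cxcl12, the gene of a chemokine secreted by the meninges that guides migrating cells, had 677 and 697 counts in the KO libraries, against 1807 and 709 in the WT libraries. Rnd3, the gene of a small GTP-binding protein of migrating neurons, had 1037 and 797 counts in the KO libraries, against 1672 and 995 in the WT libraries. In all 3 genes WT 4 lay within the CPM range of the KO libraries and WT 1 above it. Their log2 fold changes of -1.13, -0.81 and -0.49 passed without WT 4, at -1.77, -1.31 and -0.79 with edgeR adjusted p values of 2.21e-07, 3.20e-06 and 0.00607. Without WT 1 they were 0.08, -0.03 and -0.11. The summed meningeal and radial glia markers were also highest in WT 1, and their part in these genes was not tested.

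In the reelin list the genes of smallest p were Adamts4, which encodes a protease able to cleave reelin, at a log2 fold change of -0.37 (SE 0.29, but -0.71 without KO 5 and -0.09 without KO 6), Itgb1, the integrin beta-1 gene, at -0.16 (SE 0.13), and Crk, an adaptor downstream of DAB1, at -0.12 (SE 0.10). In the dynein list they were Disc1, which encodes a scaffold that binds NDEL1, at 0.58 (SE 0.39, with at most 36 counts in a library), Katna1, the gene of the microtubule-severing katanin subunit, at -0.14 (SE 0.14), and Pafah1b3, a catalytic partner of LIS1, at -0.11 (SE 0.12). None of these 6 passed. Crk had 1950 and 1899 counts in KO 5 and KO 6, against 2218 and 2088 in WT 1 and WT 4, and both KO libraries were below both WT libraries.

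Of the tubulin isotypes, Tubb6, a beta-tubulin used widely outside neurons, had 152 and 103 counts in KO 5 and KO 6, against 325 and 125 in WT 1 and WT 4. Its log2 fold change was -0.77 (SE 0.43), with -1.27 and an edgeR adjusted p of 0.00438 without WT 4, where it passed, and 0.04 without WT 1. Tubg2, a gamma-tubulin gene, was at 0.18 (SE 0.14) and Tuba4a at -0.22 (SE 0.23). Among tubulin folding and modifying enzymes, Ttll7, a glutamylase gene, was at -0.23 (SE 0.16), Vash2, the gene of a carboxypeptidase that removes the last tyrosine of alpha-tubulin, at 0.11 (SE 0.11), and Agtpbp1, the gene of a deglutamylase, at 0.08 (SE 0.11).

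Among Cdk5 partners, Cables1, which encodes a protein linking CDK5 to the kinase ABL, was at 0.43 (SE 0.23), with 136 and 125 counts in KO 5 and KO 6, against 96 and 103 in WT 1 and WT 4. Both KO libraries were above both WT libraries. Cdk5rap1, named for its binding to the activator encoded by Cdk5r1, had 181 and 275 counts in the KO libraries, against 489 and 214 in the WT libraries, and a log2 fold change of -0.56 (SE 0.39). Without WT 4 it passed, at -1.01 with an edgeR adjusted p of 0.0221, and without WT 1 it was 0.12. Ppp1r1b, the gene of a phosphatase inhibitor that CDK5 phosphorylates, was at 0.13 (SE 0.13). Of the malformation genes, Eml1, a heterotopia gene, was at 0.26 (SE 0.14), with 0.54 in KO 6 over WT 1 and -0.01 in KO 5 over WT 4, and Lamb1, a basement membrane laminin gene, at -0.28 (SE 0.19).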

How the data were processed

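RNA of E16 cortex was sequenced on an Illumina HiSeq instrument, per the series' design text, after a TruSeq preparation, per the labels. The authors deposited whole counts per Ensembl gene, 1 KO and 1 WT library a table. They also deposited CPM (count over library total, 0 written as 0.5 read), the fold (ratio) of KO to WT CPM, its log2, and p-values whose tool is not given in the sources used here. Per the submitters' processing notes HTSeq 0.6.0, TopHat2 2.0.12, Bowtie2 2.2.3 and mm9 were used, with no role or strand setting given. Gene positions are those of GRCm38 (9 of the 10 members have the GENCODE M21 start and end).

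The 10 members and all lists were chosen with earlier results of these data known. Counts of genes in both tables passed filterByExpr and TMM, and edgeR 4.0.16 (R 4.3.3) tested KO against WT, two-sided, with 2 libraries each. DESeq2 1.42.0 and limma 3.58.1 were alternatives, and the scripts were tested on simulated data. The text names the members, Cd93, related tubulins, Reln, Vldlr, Cdk5r1, Cdk5r2 and 3 genes of smallest p per list. CPM in the text is TMM-scaled, except for the alpha-tubulin group sums and the plot of its relatives. ± is the SD. The SE was computed as the absolute log2 fold change over the square root of edgeR's F statistic. The 95% intervals were built from that SE and a t distribution with the degrees of freedom of the edgeR test. Library-to-library log2 ratios add a prior of 2 counts. A count is 0.0569 to 0.0613 CPM, and the libraries of a genotype differed beyond sampling noise (chi-square per degree of freedom 19.4 for KO and 17.6 for WT). Levels per kilobase divide CPM by all exon bases of a gene in GENCODE M21, merged over its transcripts. Ratios between genes therefore depend on which isoforms are annotated. Sequences are from GENCODE M21. One gene that this rule names, and some sequences, are not reported here.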

Additional observations from a re-analysis of the deposited data

How the results depend on the processing

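No paired analysis by replicate number was possible because the KO and WT libraries share none. The pairing by deposited table, 1 KO and 1 WT library in each, was fitted as a block, and no source says that a table marks a run or day. No migration gene passed under any of the 10 alternatives with a test run for all of them, nor did Tuba1a or Tubb2b with near-identical tubulins summed. Over all genes, where edgeR called 2, DESeq2 called 8, the table as a block 29 (Cd93 among them, edgeR adjusted p 0.000971) and the crossed tables as a block (added after seeing the data) 1. Leaving out a library gave 5 to 312 (312 without WT 4, 44 without WT 1, 8 without KO 6, 5 without KO 5). In the lists that range was 0 to 1 for doublecortin and microtubule-associated genes, tubulin isotypes and Cdk5 partners, 0 to 3 for radial migration and 0 to 0 for the other 4, and each call came without WT 4.

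Signs near 0 turned. Dcx was 0.000771 by DESeq2, 0.000775 with RLE size factors and 0.000747 without a filter. Dclk1 was -0.0022 by limma-voom, -0.0024 with the table and -0.0024 with the crossed tables as a block, and Tuba1c was -0.0071, -0.0063 and -0.0067 in the same order. Leaving out each library moved the log2 fold change between -0.0910 and 0.0919 for Dcx, -0.0906 and 0.0905 for Dclk1, -0.0787 and 0.15 for Pafah1b1, -0.18 and 0.26 for Tuba1a, -0.0748 and 0.29 for Tubb2b, -0.10 and 0.12 for Tubb3, and -0.0380 and 0.43 for Dab1. The range was 0.02 to 0.10 for Lrp8 and 0.01 to 0.14 for Cdk5. It was -0.27 to 0.0408 for Tuba1b, -0.26 to 0.24 for Tuba1c, -0.29 to 0.37 for Tubb2a, -0.15 to 0.19 for Cdk5r1 and -0.0308 to 0.30 for Cdk5r2. It was -0.71 to -0.09 for Adamts4, 0.12 to 0.42 for Eml1, 0.07 to 0.36 for Mapt, 0.35 to 0.87 for Disc1, 0.01 to 0.19 for Reln and 0.03 to 0.26 for Vldlr. It was -0.30 to 0.00295 for Itgb1, -1.71 to 0.0199 for Dcdc2a, -1.27 to 0.0355 for Tubb6, -0.46 to 0.0738 for Tuba4a, -1.01 to 0.12 for Cdk5rap1, -0.53 to 0.0331 for Lamb1 and -1.77 to 0.0810 for Gja1. With 1 library left in a genotype, that library is assumed to vary like the pair of the other genotype. The cause of these shifts was not tested. The 10 genes had 1001 to 185265 counts in a library, and each interval rests on 2 libraries a genotype.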

Other observations

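Slc7a11 had 13 and 425 counts in KO 5 and KO 6, against 463 and 140 in WT 1 and WT 4, and 283 of the 25-base words of its transcripts also occur in an alpha-tubulin gene. The pseudogene CT571252.1 had 3 and 502 counts in KO 5 and KO 6, against 268 and 175 in WT 1 and WT 4. These rows were chosen after their values were seen.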
